A study of Mus musculus with 4 samples.

Results

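Regulatory T cells (Tregs) are the CD4+ T cells that carry the transcription factor Foxp3 and hold back immune responses. In the spleen they were sought here by their RNA, and the members were chosen by their measured UMIs of Foxp3, CD3, B cell and CD8 genes. A barcode counted as a Treg when it had at least 500 unique molecular identifiers (UMIs, each standing for 1 captured RNA molecule), at least 250 genes, at most 10% mitochondrial UMIs, at least 1 UMI of the CD3 genes Cd3d, Cd3e and Cd3g together, at least 1 UMI of Foxp3, at most 1 UMI of the B cell genes Cd79a and Ms4a1 together, and 0 UMIs of the CD8 gene Cd8b1. The rule found 98 cells in aged spleen and 56 cells in young spleen. These 154 Tregs came from 12548 spleen cells that passed the same depth and mitochondrial limits, and from 35204 such cells in the 4 libraries of the study.

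The study sorted immune cells with high CD45, the surface protein shared by white blood cells, from mouse tissue and counted their RNA with the 10x Chromium single-cell 3′ kit. It has 1 library each of aged spleen, young spleen, aged brain and young brain, and ages in numbers, strain, number of animals and pooling are not among what the labels give. A tamoxifen injection and a measurement of tdTomato+ NK cells after 4 weeks are given for all libraries alike, so the spleen groups differ by their labels in age only. The labels also give neuroblast as the cell type of all libraries, which does not describe the cells of the rule. With 1 library per group there is no test of age: mouse, sort and library cannot be told apart from age, and every interval below is a 95% interval for counting error only.

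Foxp3 drives the Treg programme, and the best known proteins of that programme work at the cell surface. CTLA-4 takes the costimulatory ligands CD80 and CD86 away from antigen-presenting cells, and the IL-2 receptor alpha chain (Il2ra, CD25) lets Tregs take up interleukin-2, on which they depend. Izumo1r (folate receptor 4) is another surface protein rich on mouse Tregs. Tregs leave the thymus in a resting, lymph node homing form and can turn into effector Tregs, which carry more of the suppressive molecules. In ageing mice, Tregs are known to gather in the spleen.

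The Tregs held 549830 UMIs in aged spleen and 348290 UMIs in young spleen. A Treg had a median of 4831 UMIs (1166 to 18994) in aged spleen and 4497.5 UMIs (2450 to 50175) in young spleen, with median mitochondrial shares of 4.95% and 4.38%. The largest young Tregs, with 50175 and 26546 UMIs, held 14.4% and 7.62% of all UMIs of the young Tregs, while the largest aged Treg held 3.45%. Many values are also given without those 2 young cells, though not the ratio of every single gene. A ratio near the 2-fold mark that is given with all cells only may not stay past it.

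A second limit concerns barcodes that libraries share. Of the 98 aged Treg barcodes, 94 also had at least 500 UMIs in the young brain library, with a median of 900 UMIs there, and none of them had more UMIs there than in aged spleen. None of the 98 reached 500 UMIs in young spleen or aged brain, and of the 56 young Treg barcodes 1 did so, in aged brain. Without all such barcodes 4 aged and 55 young Tregs were left, too few for values of genes.

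Tregs took a larger share of the T cells of the aged spleen. In aged spleen 98 of 1964 T cells were Tregs, a share of 4.99% (4.07 to 6.05%, exact Clopper-Pearson). In young spleen 56 of 2052 T cells were Tregs, a share of 2.73% (2.07 to 3.53%). The aged share was 1.83 times the young share (1.30 to 2.59). Among T cells without a Cd8b1 UMI, the shares were 6.10% of 1607 cells in aged spleen and 3.11% of 1800 cells in young spleen, a ratio of 1.96 (1.40 to 2.77). This denominator is not made of CD4+ T cells alone. In its Foxp3-negative cells 6 NK cell markers summed to 1112 UMIs per 1000000 in aged spleen and 2866 in young spleen. With a Cd4 UMI required, 58 aged Tregs stood beside 529 Foxp3-negative cells, and 31 young Tregs beside 441. No ratio of shares was taken among those cells. A deeper cell has more chances of a Foxp3 UMI, so the share was also taken after each cell had been thinned to 1500 UMIs, with 73 aged and 106 young T cells left out as shallower (1 and 0 of them Tregs) and the rule applied to the thinned counts. It was then 2.91% in aged spleen (48 of 1650) and 1.82% in young spleen (32 of 1755), a ratio of 1.60 (0.999 to 2.58), an interval that just takes in 1, and among Cd8b1-negative T cells the ratio was 1.61 (1.01 to 2.60). Without the barcodes shared with another library the Treg share was 1.27 times as high in aged spleen (0.334 to 3.44), so with 4 aged Tregs left no difference was detectable.

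Free RNA can put a Foxp3 UMI into a cell that does not express the gene. Among B cells, 3 of 1955 in aged spleen (0.153%) and 1 of 2329 in young spleen (0.0429%) had a Foxp3 UMI. Among NK cells it was 1 of 515 in aged spleen and 0 of 1384 in young spleen. Among T cells with Cd8b1, it was 7 of 357 in aged spleen (1.96%) and 1 of 252 in young spleen (0.397%). These cells had median depths of 4223 and 3833 UMIs for B cells and 7179 and 6357 UMIs for Cd8b1-positive T cells, aged before young. The Treg shares lay above all of these background shares, although in aged spleen the Cd8b1-positive share reached 4.00% at its upper limit.

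**Figure D1:**
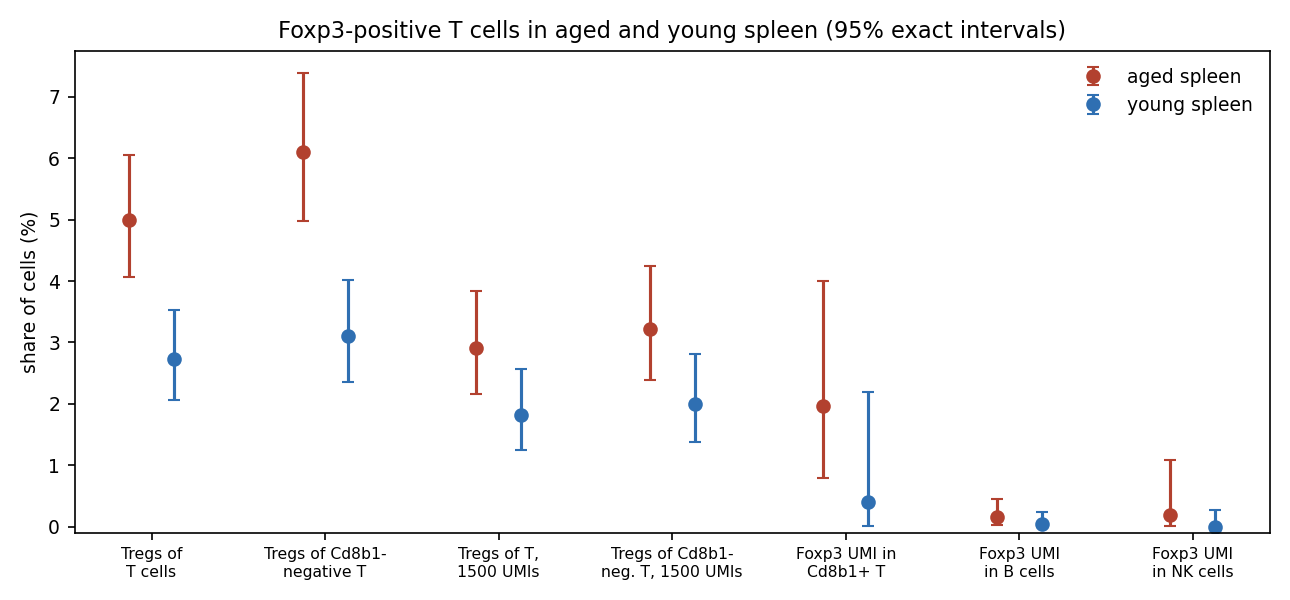
Share of cells (%, vertical axis) in aged and young spleen, with bars for the 95% exact binomial interval. The first 4 pairs are Tregs among T cells and among Cd8b1-negative T cells at their own depth and at 1500 UMIs, and the last 3 pairs are cells with a Foxp3 UMI among classes that should lack it. Aged spleen lies above young spleen in each Treg pair, and the B and NK cell shares lie below 0.2%.

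Foxp3 itself was set by the rule and is described only. In aged spleen 42 Tregs had 1 Foxp3 UMI and 56 had at least 2 (up to 10), and in young spleen 19 had 1 and 37 had at least 2 (up to 9). Ctla4 stood at 1045 UMIs per 1000000 UMIs of the class (CPM) in aged Tregs with 1 Foxp3 UMI, at 1092 CPM in those with more, and at 196 CPM in T cells with none. In young spleen the same 3 levels were 745, 743 and 40.3 CPM. Ctla4 was thus similar just inside the threshold of 1 UMI and well inside it, in each library. So was Izumo1r, at 637 and 636 CPM in aged spleen and 383 and 410 CPM in young spleen. Other identity genes were lower at 1 Foxp3 UMI, though not all of them in each library. Tnfrsf18 (GITR, a TNF receptor family member) was 174 CPM at 1 Foxp3 UMI and 317 CPM at more in aged spleen, and 151 and 297 CPM in young spleen. Ikzf2 (Helios, a transcription factor) was 871 and 1149 CPM in aged spleen. In young spleen it was 1088 and 1165 CPM, with intervals that overlapped. Il2ra in young spleen was 131 CPM at 1 Foxp3 UMI and 245 CPM at more, while in aged spleen it was 101 and 124 CPM.

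Genes known from Tregs were then compared between the Tregs and the T cells of the same library without Foxp3 and Cd8b1 UMIs (1509 aged, 1744 young). Of the 24 genes of a Treg identity list, 17 reached 50 UMIs over the Tregs of both libraries, and 15 of these 17 were at least 2-fold higher in Tregs in both libraries. Over all 2825 genes of that depth 74 were (2.62%), and 15 were at least 2-fold lower in both (0.531%). Foxp3 is among the 15 by the rule itself. The limit of 50 UMIs was set on Tregs alone, so it favoured genes high in Tregs, and list members under it were not counted. The count is therefore no independent check of the label. The others of the 17 were Icos, a costimulatory receptor, at 1.72-fold in aged spleen and 2.15-fold in young spleen, and Tnfrsf1b, a TNF receptor, at 1.71-fold and 2.56-fold.

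Of the 4 markers, Foxp3 was fixed by the rule, and the other 3 were each higher in Tregs than in Foxp3-negative T cells of the same spleen. Ctla4 was at 1073 CPM in aged Tregs and at 196 CPM in aged Foxp3-negative T cells, and at 744 CPM in young Tregs and 40.3 CPM in young Foxp3-negative T cells. Izumo1r was at 637 against 194 CPM in aged spleen and at 402 against 69.1 CPM in young spleen, Tregs before Foxp3-negative cells. Il2ra was at 115 against 21.8 CPM in aged spleen and at 212 against 26.3 CPM in young spleen. All these Treg levels lay well above those of the Foxp3-negative cells of the same spleen. On GRCm38 in the GENCODE M21 annotation, Ctla4 lies at chr1:60887000-60915832 (+), Foxp3 at chrX:7573644-7595245 (+), Il2ra at chr2:11642807-11693193 (+) and Izumo1r at chr9:14885814-14903949 (-).

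Other genes led the comparison of Tregs with Foxp3-negative cells. Lrrc32 (GARP, which holds latent TGF-beta on the Treg surface) had 116 CPM in aged Tregs and 6.72 CPM in aged Foxp3-negative cells, and 71.8 CPM in young Tregs and 2.81 CPM in young Foxp3-negative cells, a gap of 17.3-fold and 25.6-fold. Tnfrsf4 (OX40, a costimulatory receptor) was 7.47-fold and 32.9-fold higher, and Ikzf4 (Eos, a partner of Foxp3) 9.32-fold and 8.98-fold higher, aged before young. Ikzf2 (Helios, most abundant in Tregs made in the thymus) was 3.91-fold and 4.67-fold higher. Named by rank were also Dst (a cytoskeletal linker), 7.87-fold and 11.2-fold, Lrig1 (a membrane protein that dampens growth factor receptors), 5.30-fold and 7.57-fold, and Neb (nebulin, known from the muscle sarcomere), 13.2-fold in aged spleen and 172-fold in young spleen. Neb rested on 33 aged and 27 young Treg UMIs against 4 UMIs in all young Foxp3-negative cells.

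The gap between Tregs and other T cells was smaller in aged spleen for several of these genes, and the aged Foxp3-negative cells carried more of them. Nrp1 (neuropilin 1, a surface receptor of mouse thymic Tregs) was 2.47-fold higher in Tregs than in Foxp3-negative cells in aged spleen and 23.6-fold higher in young spleen. In Foxp3-negative cells it stood at 38.3 CPM in aged spleen and 7.53 CPM in young spleen. Ctla4 of Foxp3-negative cells was 4.86-fold and Izumo1r 2.80-fold as high in aged as in young spleen. Among cells with a Cd4 UMI, 58 aged and 31 young Tregs against 529 aged and 441 young Foxp3-negative cells, Ctla4 was 2.63-fold higher in aged Tregs and 8.50-fold higher in young Tregs. Of the other markers, Izumo1r was then 1.64-fold (1.43 to 1.88) and 2.72-fold higher, and Il2ra 5.03-fold and 4.44-fold higher, aged before young. Nrp1 was then 1.09-fold (0.729 to 1.57) in aged spleen, a difference within counting error, and 11.6-fold higher in young spleen. A Treg whose Foxp3 RNA was not captured falls among the Foxp3-negative cells, and its part in these values was not tested.

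**Figure D2:**
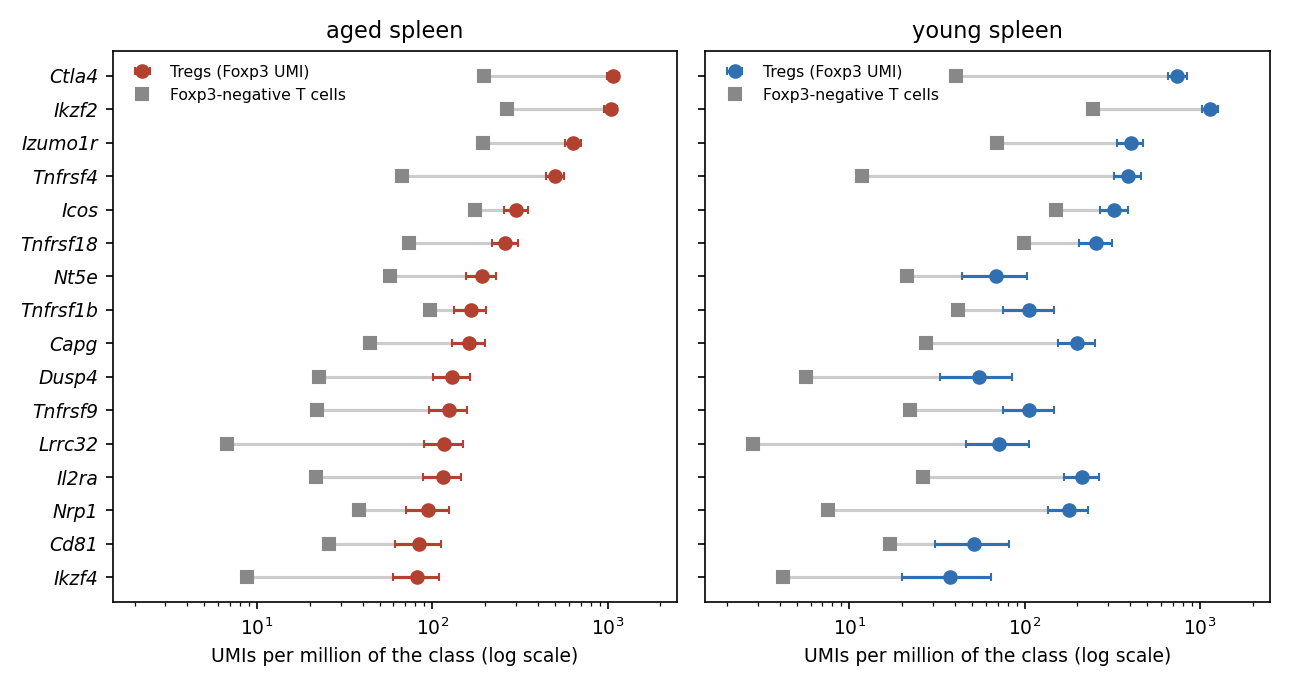
Level of 16 Treg identity genes (CPM, logarithmic axis) in Tregs (circles, with 95% exact Poisson intervals) and in Foxp3-negative Cd8b1-negative T cells (squares) of aged spleen (left) and young spleen (right). Every Treg level lies to the right of its Foxp3-negative level, and Ctla4, Tnfrsf4 and Nrp1 show wider gaps in young spleen.

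Set against each other, aged and young Tregs differed in a limited set of genes. Of the 2825 genes that reached 50 UMIs in all, 156 were at least 2-fold higher in aged Tregs (5.52%) and 127 at least 2-fold lower (4.50%), and the median gene had a log2 ratio of -0.03. The same genes in Foxp3-negative T cells gave 77 higher (2.73%) and 16 lower (0.566%), over many more UMIs. Without the 2 largest young Tregs, 2582 genes were measured, of which 114 were at least 2-fold higher (4.42%) and 43 at least 2-fold lower (1.67%). Of the genes called with all cells, 99 of the 156 higher genes were still at least 2-fold higher, and 29 of the 127 lower genes still at least 2-fold lower. Most of the lower genes thus rested on those cells, and 50 of them fell under 50 UMIs without them.

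Within the identity list, Foxp3 had 418 CPM in aged Tregs and 393 CPM in young Tregs, from which nothing is read because the rule used it. Of the 17 measured identity genes, 3 were at least 2-fold higher in aged Tregs and none 2-fold lower, against 5.52% and 4.50% over all genes. Their median log2 ratio was 0.37, or 0.10 with 2 higher and 2 lower without the 2 largest young cells. Ctla4, at 1073 CPM in aged Tregs and 744 CPM in young Tregs, was 1.44-fold higher (1.24 to 1.68), with UMIs in 91 of 98 aged and 50 of 56 young Tregs. Izumo1r, at 637 CPM in aged Tregs and 402 CPM in young Tregs, was 1.58-fold higher (1.30 to 1.94). Both ratios moved toward 1 without the 2 largest young cells, to 1.20 and 1.30. Ikzf2 was level, at 1038 CPM in aged Tregs and 1143 CPM in young Tregs (0.909-fold, 0.798 to 1.04), and so was Tnfrsf18, at 260.1 and 255.5 CPM.

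Il2ra and Nrp1 went the other way. Il2ra had 115 CPM in aged Tregs, in 37 of 98 cells, and 212 CPM in young Tregs, in 33 of 56 cells. Its ratio of 0.539 (0.379 to 0.765) fell short of the 2-fold mark with all cells, passed it at 0.432 without the 2 largest young cells, and was 0.403 when every cell had the same weight. Nrp1 had 94.6 CPM in aged Tregs and 178 CPM in young Tregs, a ratio of 0.531 (0.360 to 0.781), and 0.476 without the 2 largest young cells. Aged Tregs thus carried less RNA of the CD25 chain beside more Izumo1r RNA, which was 1.42-fold when every cell had the same weight. For Ctla4 the difference was small outside the main setting. It was 1.20-fold without the 2 largest young cells and 1.18-fold when every cell had the same weight. At 1500 UMIs per cell Ctla4 was found in 69.1% of aged and 73.2% of young Tregs, and Izumo1r in 63.9% and 42.9%.

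Around the CD25 chain, the rest of the IL-2 receptor was level. Il2rb, the signalling beta chain, had 415 CPM in aged Tregs and 373 CPM in young Tregs (1.11-fold, 0.892 to 1.39), and Il2rg, the shared gamma chain, had 207 and 212 CPM (0.976-fold, 0.722 to 1.33). Of 9 measured genes of the list of this receptor and its STAT5 pathway, 2 were at least 2-fold higher and none lower. Over all genes 5.52% were higher. The list had a median log2 ratio of 0.25. The list had 2 higher, 1 lower (Il2ra) and a median of 0.01 without the 2 largest young cells. Socs3, an inhibitor of cytokine signalling, had 209 CPM in aged Tregs and 71.8 CPM in young Tregs (2.91-fold, 1.88 to 4.69). Stat5a, the transcription factor below the receptor, had 122 CPM and 60.3 CPM (2.02-fold, 1.22 to 3.47). In Foxp3-negative cells Socs3 was 2.73-fold as high in aged spleen, so its difference was not confined to Tregs.

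Among genes of suppression, 8 of 18 were measured. Of these, 3 were at least 2-fold higher in aged Tregs and 1 at least 2-fold lower, against 5.52% and 4.50% over all genes (median log2 ratio of the list 0.61). The median was 0.37 without the 2 largest young cells and 0.28 without Tregs with a UMI of Mki67 or Top2a, genes of dividing cells. In Foxp3-negative cells it was 1.34, with 5 of the 8 at least 2-fold higher in aged spleen. Areg, the growth factor amphiregulin that Tregs release in tissue repair, had 96 UMIs in 37 of 98 aged Tregs (175 CPM) and 6 UMIs in 5 of 56 young Tregs (17.2 CPM). The ratio was 10.1 (4.49 to 28.3), and at 1500 UMIs per cell Areg was still found in 24 of 97 aged and 1 of 56 young Tregs. Il10, the suppressive cytokine interleukin-10, had 66 UMIs in 14 aged Tregs and 8 UMIs in 4 young Tregs, a ratio of 5.23 (2.50 to 12.6), and 1 aged cell held 27.3% of the aged UMIs. Nt5e (CD73, which makes adenosine from AMP) had 191 CPM in aged Tregs and 68.9 CPM in young Tregs (2.77-fold, 1.77 to 4.52). The same genes were higher in aged Foxp3-negative cells, where Areg was 25.3-fold as high as in young spleen, where it had 10 UMIs, and Nt5e 2.68-fold.

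Lgals1 (galectin-1, a secreted lectin) was the suppression gene that was lower, at 213 CPM in aged Tregs and 551 CPM in young Tregs (0.386-fold, 0.304 to 0.488). It was found in 29 of 98 aged and 28 of 56 young Tregs, and its ratio was 0.875 without Tregs with a UMI of Mki67 or Top2a. In Foxp3-negative cells it was 0.517-fold, but in those with a Cd4 UMI it was level (1.06-fold, 0.935 to 1.21). Among members under 50 UMIs, Lag3 (an inhibitory receptor for MHC class II) had UMIs in 21 of 98 aged Tregs and 3 of 56 young Tregs. Ebi3, Entpd1, Fgl2 and Gzmb had UMIs in 3 to 9 Tregs of each library, and Il12a in none. By the limit of 3 counts, a UMI of Il12a could stand in up to 3.06% of aged and 5.36% of young Tregs, which says nothing of cells that express it below capture.

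The genes furthest above 2-fold in aged Tregs, by the lower end of the interval of their ratio, were Ier5l, Fosl2, Areg, Klf4, Bhlhe40, Nr4a3, Cwc25, Cdkn1a, Pmaip1 and Rrad. Fosl2, a member of the AP-1 transcription factors, had 128 UMIs in 56 aged Tregs (233 CPM) and 8 UMIs in 4 young Tregs (22.97 CPM), a ratio of 10.1 (4.99 to 24.0). Klf4, a zinc finger factor that restrains T cell division, had 407 CPM in aged Tregs and 71.8 CPM in young Tregs (5.68-fold, 3.75 to 8.96). Klf4 was found in 65 of 98 aged Tregs and 11 of 56 young Tregs. Bhlhe40, a transcription factor that helps set cytokine output of T cells, had 600.2 CPM in aged Tregs and 132 CPM in young Tregs (4.54-fold, 3.33 to 6.33). Nr4a3, an orphan nuclear receptor switched on by the T cell receptor, had 246 and 45.9 CPM (5.34-fold, 3.17 to 9.62). Each of these 4 genes was thus well above its young level, and each was found in most aged Tregs.

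The remaining genes of that rank included regulators of cell division and death. Cdkn1a (p21, an inhibitor of cyclin-dependent kinases) had 51 UMIs in 27 aged Tregs and 4 UMIs in 3 young Tregs, a ratio of 8.08 (2.97 to 30.8). Pmaip1 (Noxa, a death-promoting BCL2 family member) had 71 UMIs in 36 aged Tregs and 7 UMIs in 7 young Tregs, a ratio of 6.42 (2.96 to 16.6). Cwc25 (a splicing factor) was 6.33-fold and Rrad (a Ras-related GTPase) 5.54-fold higher. Ier5l, a relative of the early response gene Ier5, had 78 UMIs in 33 aged Tregs and 1 UMI in young Tregs, a ratio of 49.4 with an interval from 8.61 to 1976. Without the 2 largest young cells the 10 ratios ran from 3.62 (Bhlhe40) to 38.5 (Ier5l). In Foxp3-negative cells all 10 were also higher in aged spleen, by 1.69-fold (Bhlhe40) to 25.3-fold (Areg).

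**Figure D3:**
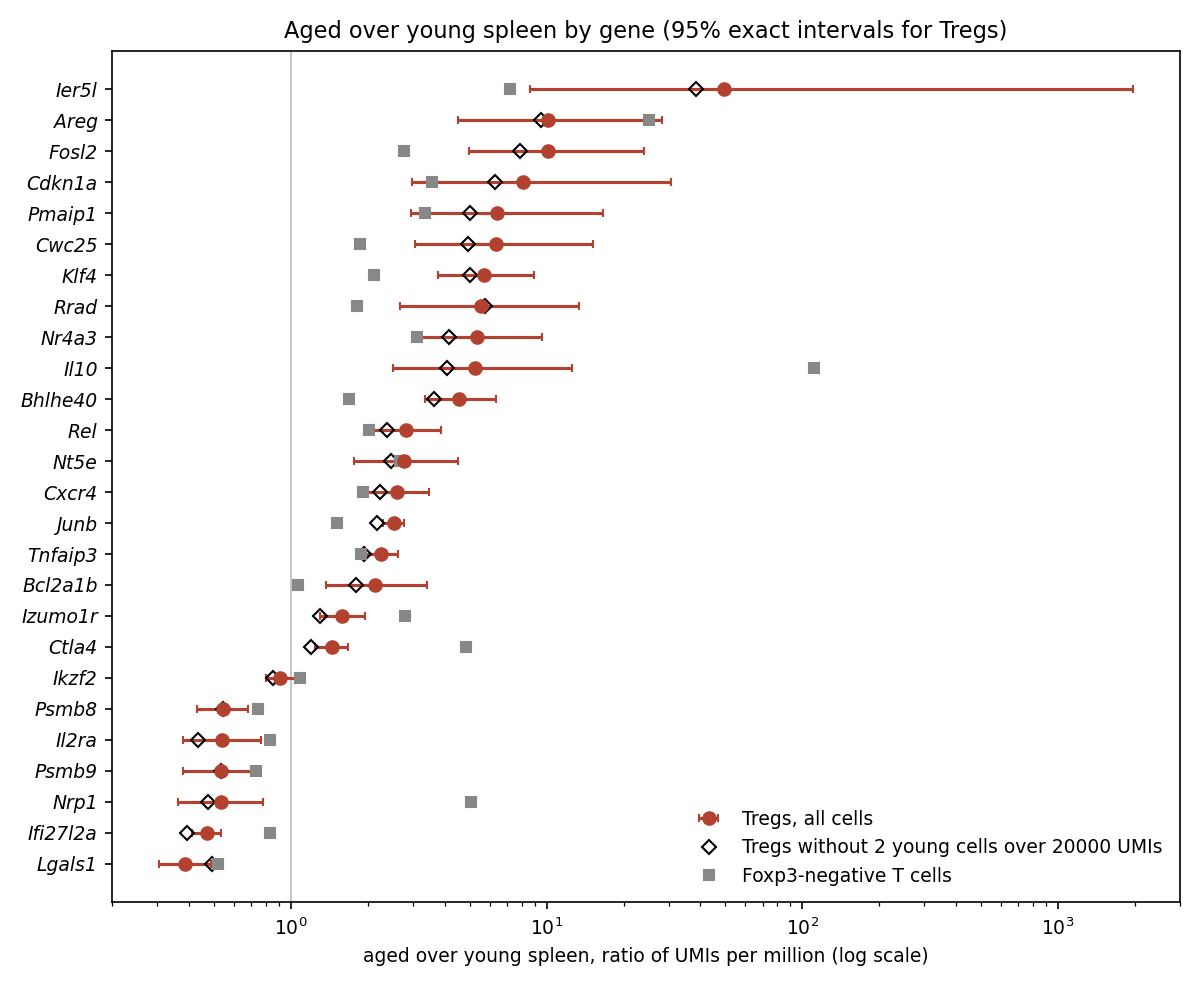
Ratio of aged over young spleen (logarithmic axis, 1 marks no difference) for 26 genes in Tregs (circles, with 95% exact intervals), in Tregs without the 2 young cells over 20000 UMIs (diamonds) and in Foxp3-negative T cells (squares). Ier5l, Fosl2, Areg, Klf4 and Nr4a3 stay to the right of 1 in all 3, Ctla4 and Izumo1r are shifted more in Foxp3-negative cells than in Tregs, and Il2ra and Nrp1 lie left of 1 in Tregs.

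The promoters of Areg and Fosl2 are shown because, among those of the 10 genes that could be matched, they alone hold one of 3 motifs of signal-driven factors. RefSeq start sites on GRCm38.p6 were matched for 7 of the 10 genes, with 8 promoters, and the 250 bases before each start were searched on both strands. The cAMP response element TGACGTCA (a palindrome, bound by CREB and ATF factors) was found in 1 of the 8, Areg, starting 61 bases before the start site, and in 1.55% of 32851 promoters. The AP-1 motif TGANTCA was found in none of the 8, and in 6.75% of all. An NF-kB consensus was found in 1 of the 8, Fosl2, starting 182 bases before the start site, and in 3.90% of all. Below, capitals mark the cAMP response element of Areg, at chr5:91139349-91139598 (+), and the NF-kB match of Fosl2, at chr5:32136222-32136471 (+), both written 5′ to 3′ up to the base before the start.
Areg: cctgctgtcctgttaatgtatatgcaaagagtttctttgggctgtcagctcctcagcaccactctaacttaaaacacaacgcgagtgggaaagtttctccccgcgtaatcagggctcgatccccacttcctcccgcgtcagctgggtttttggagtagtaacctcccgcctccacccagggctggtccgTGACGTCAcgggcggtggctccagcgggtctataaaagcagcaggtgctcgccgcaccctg
Fosl2: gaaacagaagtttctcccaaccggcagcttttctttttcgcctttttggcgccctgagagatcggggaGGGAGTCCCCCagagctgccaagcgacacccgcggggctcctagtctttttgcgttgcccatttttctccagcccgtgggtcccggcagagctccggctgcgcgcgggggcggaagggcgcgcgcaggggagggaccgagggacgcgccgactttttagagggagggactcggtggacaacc
These matches describe the letters of the windows only, and the data hold no measure of binding there.

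The wider list of immediate early genes, which cells switch on within minutes of a signal, was higher in aged Tregs as a group. Of its 25 measured members 9 were at least 2-fold higher and none lower (median log2 ratio 0.77), against 5.52% higher over all genes. Besides Fosl2 and Nr4a3 these were Fosb, Jun, Junb, Egr1, Nr4a1, Nr4a2 and Rgs2. Junb, an AP-1 subunit that effector Tregs need, had 4101 CPM in aged Tregs and 1625 CPM in young Tregs, with UMIs in 98 of 98 and 54 of 56 cells (2.52-fold, 2.30 to 2.77). Nr4a1 (Nur77, a read-out of T cell receptor signals) had 358 CPM and 141 CPM (2.55-fold, 1.85 to 3.56). Other members did not move with them: Cd69, an early activation antigen, had 396 CPM in aged Tregs and 439 CPM in young Tregs (0.903-fold, 0.731 to 1.12), and Dusp1, a MAP kinase phosphatase, 1004 and 956 CPM (1.05-fold, 0.915 to 1.21).

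The shift was spread over many Tregs. The list took a median of 187 of each 10000 UMIs of an aged Treg (85.3 to 537) and 128 of each 10000 UMIs of a young Treg (18.1 to 291). The lower quartile of aged Tregs was 145 and the upper quartile of young Tregs 167, so the groups overlapped widely. In Foxp3-negative cells the medians were 173 in aged spleen and 143 in young spleen, with a median log2 ratio over the genes of 0.34 and 4 of 25 members at least 2-fold higher. Without the 2 largest young Tregs the median log2 ratio of the list in Tregs was 0.53, with 8 members at least 2-fold higher.

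Genes of TNF receptors and NF-kB, the pathway that OX40 and GITR feed and that Tregs need to mature, gave a like picture. Of 14 measured members 5 were at least 2-fold higher in aged Tregs and none lower, against 5.52% higher over all genes. The median log2 ratio was 0.66 in Tregs and 0.46 in Foxp3-negative cells. Only 3 members were at least 2-fold higher without the 2 largest young cells, with a median of 0.53. Rel (c-Rel, the subunit that helps switch on Foxp3) had 438 CPM in aged Tregs and 155 CPM in young Tregs (2.83-fold, 2.10 to 3.87). Nfkbid, an IkB family protein that acts with c-Rel, had 176 CPM and 57.4 CPM (3.07-fold, 1.88 to 5.25). Tnfaip3 (A20, a brake on NF-kB) had 1457 CPM in aged Tregs, in 96 of 98 cells, and 646 CPM in young Tregs, in 50 of 56 cells (2.26-fold, 1.94 to 2.63, and 1.94-fold without the 2 largest young cells). The other members past 2-fold were Birc2 (2.61-fold) and Rela (2.11-fold), an inhibitor of apoptosis and an NF-kB subunit. Without the 2 largest young cells Rel was 2.38-fold, and Nfkbid, Birc2 and Rela did not all stay past 2-fold. The receptors themselves moved less, with Tnfrsf1b at 166 CPM in aged Tregs and 106 CPM in young Tregs (1.56-fold, 1.05 to 2.35) and Tnfrsf9 (4-1BB) at 124 and 106 CPM (1.16-fold, 0.769 to 1.79).

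**Figure D4:**
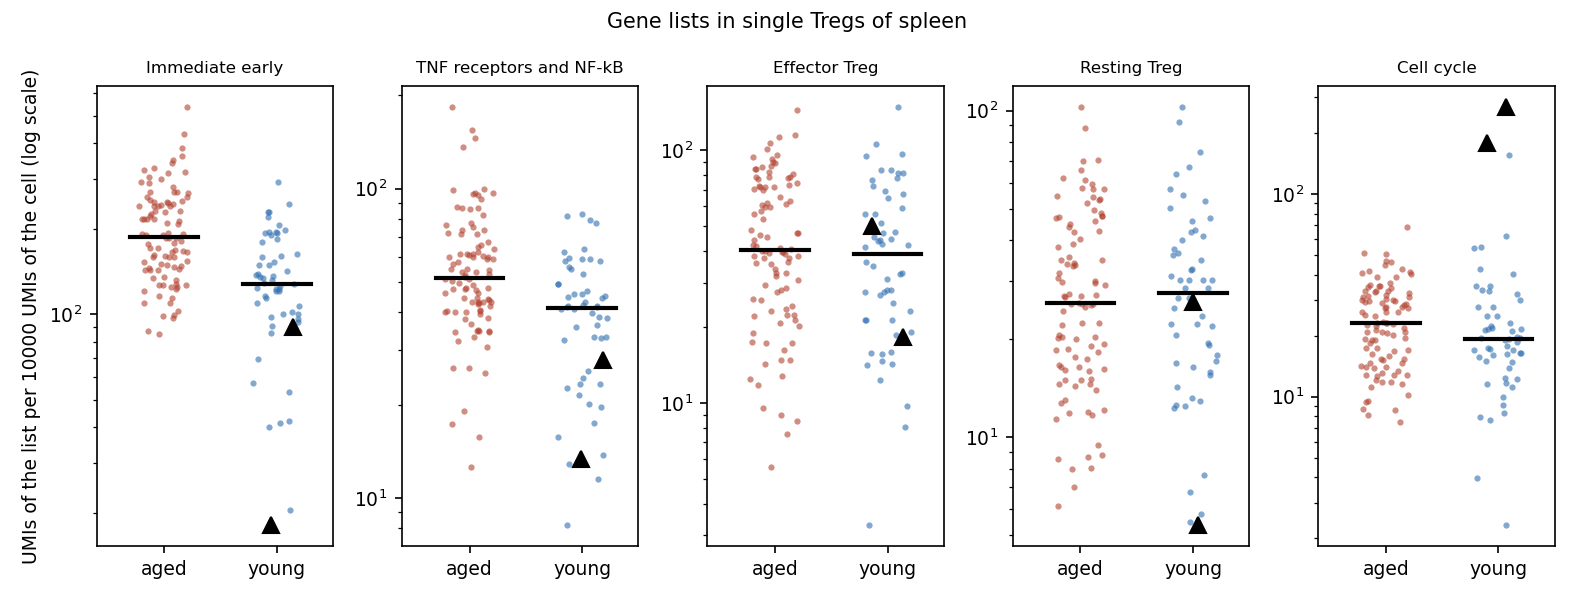
UMIs of 5 gene lists per 10000 UMIs of the cell (logarithmic axes) in each Treg of aged spleen (98 points) and young spleen (56 points), with bars at the median and triangles for the 2 young cells over 20000 UMIs. The medians of the immediate early list are 187 and 128, those of the effector list 40.3 and 38.8, and the triangles stand above all other Tregs in the cell cycle list.

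The balance of resting and effector Tregs was close in the 2 spleens. Of 12 measured genes of resting Tregs none was 2-fold higher or lower in aged Tregs (median log2 ratio 0.08), and the list took a median of 25.7 of each 10000 UMIs in aged Tregs and 27.6 in young Tregs. Single members differed by less than 2-fold. Foxo1, the factor that keeps Tregs in the resting state, had 320.1 CPM in aged Tregs and 189.5 CPM in young Tregs (1.69-fold, 1.27 to 2.28), and Ccr7, a chemokine receptor for lymph nodes, 224 and 141 CPM (1.59-fold, 1.13 to 2.26).

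Of 16 measured genes of effector Tregs 3 were at least 2-fold higher, Il10 among them, against 5.52% over all genes. None was 2-fold lower, and the median log2 ratio of the list was 0.19. With the 2 largest young cells left out, 2 of 14 were higher and 1 lower (median 0.13). Rora, a nuclear receptor of tissue Tregs, had 293 CPM in aged Tregs and 135 CPM in young Tregs (2.17-fold, 1.56 to 3.07), and Nfil3, a leucine zipper factor, 138 and 57.4 CPM (2.41-fold, 1.46 to 4.16). Without the 2 largest young cells the 2 higher members were Il10 (4.07-fold) and Rora (2.21-fold), and Nfil3 fell under the 2-fold mark. The core effector factors Batf, Irf4 and Maf were at 0.979-fold, 0.881-fold and 1.12-fold, each with an interval that takes in 1. Klrg1, a receptor of terminally differentiated effector Tregs, went far the other way: it was found in 2 of 98 aged Tregs and 10 of 56 young Tregs, with 2 against 32 UMIs (0.0396-fold, 0.0046 to 0.155). At 1500 UMIs per cell it was still found in 2 of 97 aged and 6 of 56 young Tregs. Il1rl1 (ST2, the interleukin-33 receptor of tissue Tregs) was found in 1 aged and 6 young Tregs. Klrg1 and Il1rl1 were both under 50 UMIs and were picked out after their values were seen.

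Follicular regulatory T cells, which hold back germinal centres, were looked for by their genes. Cxcr5, the B cell follicle homing receptor, was found in 13 of 98 aged Tregs and 7 of 56 young Tregs, Bcl6 in 18 and 7, and Pdcd1 (PD-1) in 12 and 7. Those shares, 13.3% against 12.5% for Cxcr5, were near each other. Tox2, a factor of follicular helper cells, was found in 17 aged Tregs and 1 young Treg. Sostdc1, Ascl2 and Il21 had no UMI in any Treg.

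The 10 genes lowest in aged Tregs by the upper end of the interval of their ratio were Hist1h2ae, Pclaf, Hist1h1b, Stmn1, Mki67, Top2a, Mcm7, Tuba1b, Dut and Ran. Of these, 6 stand in the cell cycle list, and 1 young cell held between 38.1% (Stmn1) and 77.2% (Top2a) of the young UMIs of each of the 10. Mki67 (the proliferation antigen Ki-67) had 15 UMIs in 9 aged Tregs and 93 UMIs in 7 young Tregs, a ratio of 0.102 (0.055 to 0.177), and 61.3% of the young UMIs lay in 1 cell. Hist1h2ae, a histone gene of dividing cells, had 1 UMI in aged Tregs and 104 UMIs in 3 young Tregs, a ratio of 0.00609 (0.000153 to 0.0347), with 73.1% of the young UMIs in 1 cell. Tuba1b, a tubulin, had 129 CPM in aged Tregs and 563 CPM in young Tregs (0.229-fold), and 0.816-fold without the 2 largest young cells. Of the cell cycle list, 8 of 13 measured members were at least 2-fold lower, against 4.50% over all genes. The median log2 ratio of the list was -1.54. Without the 2 largest young cells it was -0.25 with none of 7 members past 2-fold, and without all Tregs with an Mki67 or Top2a UMI it was 0.25.

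Single genes of division differed in how many Tregs held them. A UMI of Mki67 or Top2a was found in 17 of 98 aged Tregs (17.3%, 10.4 to 26.3%) and 12 of 56 young Tregs (21.4%, 11.6 to 34.4%), a difference within counting error. Of other list members, Cdk1, the kinase that starts mitosis, was found in 0 of 98 aged and 5 of 56 young Tregs, and its cyclins Ccnb2 in 0 and 4 and Ccna2 in 0 and 2. Some members went the other way, such as Mcm6, in 35 of 98 aged and 15 of 56 young Tregs, and Rrm1, in 15 and 5. At 1500 UMIs per cell Top2a was found in 0 of 97 aged and 2 of 56 young Tregs, and Mki67 in 5 and 4. The cell cycle list took a median of 22.98 of each 10000 UMIs in aged Tregs and 19.3 in young Tregs, and at most 68.9 in any aged Treg against 269 in the top young Treg. Young spleen thus held a few Tregs with far more cell cycle RNA than any aged Treg had.

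Of 7 measured BCL2 family genes 2 were at least 2-fold higher and none lower (median log2 ratio 0.52), against 5.52% higher over all genes. Leaving out the 2 largest young cells, 1 of 7 was higher (median 0.36), and without Tregs with a UMI of Mki67 or Top2a the median was 0.05. With all cells the 2 higher genes were Pmaip1 and the survival gene Bcl2a1b, whose UMIs cannot be told from those of its close copies. Bcl2a1b had 166 CPM in aged Tregs and 77.5 CPM in young Tregs (2.13-fold, 1.38 to 3.41). Without the 2 largest young cells Bcl2a1b was 1.80-fold and Pmaip1 5.01-fold. Bcl2, the survival protein itself, was level at 171 and 175 CPM (0.976-fold, 0.700 to 1.37), and Mcl1, on which Tregs depend, was at 429 and 299 CPM (1.44-fold, 1.14 to 1.83).

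The interferon response list leaned the other way. Of 17 measured members 3 were at least 2-fold lower in aged Tregs and none higher (median log2 ratio -0.61), against 4.50% lower over all genes. Without the 2 largest young cells 5 were lower (-0.80), against 1.67% of all genes. Ifi27l2a, an interferon-induced mitochondrial protein, had 749 CPM in aged Tregs and 1602 CPM in young Tregs (0.468-fold, 0.411 to 0.532). Ifi209, a nucleic acid sensor family member, had 70.9 and 178 CPM (0.398-fold, 0.260 to 0.604), and Ly6a (Sca-1, a surface antigen) 49.1 and 123 CPM (0.398-fold, 0.236 to 0.659). The immunoproteasome subunits Psmb8 and Psmb9 were at 0.540-fold and 0.532-fold. The list took a median of 25.5 of each 10000 UMIs in aged Tregs and 42.5 in young Tregs, and 19.3 against 27.9 in Foxp3-negative cells. Isg15 and Irf7, which rise in a type I interferon response, were under 50 UMIs in both, with 25 and 17 UMIs in aged Tregs and 11 and 6 UMIs in young Tregs.

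Of 74 measured nuclear genes of oxidative phosphorylation, the mitochondrial respiratory chain, 12 were at least 2-fold lower in aged Tregs and none higher, against 4.50% lower over all genes, with a median log2 ratio of -0.70. Without the 2 largest young cells the median was -0.37 with 2 of 67 members lower, against 1.67% over all genes, and in Foxp3-negative cells it was -0.20, while the transcripts made in mitochondria had a median of 0.13. Heat shock genes had a median of -0.68, and -0.19 without those cells. Glycolysis genes had -0.41, and 0.05 without them. Genes of the T cell receptor and its signalling chain were level, with none of 18 past 2-fold and a median of 0.04. Class I presentation genes, with none of 13 past 2-fold, had a median of 0.02, genes of the cytosolic ribosome -0.26 with 1 of 76 lower, and S100 and annexin genes -0.21 with 1 of 12 lower.

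Of 13 measured homing receptors 1 was at least 2-fold higher in aged Tregs and none lower (median log2 ratio -0.18), a share near the 5.52% over all genes. When the 2 largest young cells were left out, 1 of 12 was higher and 1 lower. The higher receptor was Cxcr4 in both cases, the receptor for CXCL12 of bone marrow and spleen stroma. It had 495 CPM in aged Tregs, in 81 of 98 cells, and 190 CPM in young Tregs, in 32 of 56 cells. Its ratio was 2.61 (1.99 to 3.47), and 2.24 without the 2 largest young cells. In Foxp3-negative cells Cxcr4 was 1.91-fold as high in aged spleen. Ccr8, a receptor of tumour and skin Tregs, had no UMI in either spleen.

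Summed markers of most other cell types were higher in aged Tregs than in young Tregs. The 8 B cell markers summed to 547 CPM in aged Tregs and 261 CPM in young Tregs, mostly Cd74 and MHC class II genes, while Cd79a and Cd79b had 8 and 3 UMIs in aged Tregs and 8 and 9 UMIs in young Tregs. The rule held Cd79a and Ms4a1 down to at most 1 UMI per cell, so their part of that sum was fixed by it. The 5 erythroid markers summed to 186 CPM in aged Tregs and 25.8 CPM in young Tregs, the 6 myeloid markers to 34.6 and 8.61 CPM, the 4 neutrophil markers to 94.6 and 51.7 CPM, and the 4 plasma cell markers to 151 and 74.7 CPM. The 6 NK cell markers summed to 315 CPM in aged Tregs and 393 CPM in young Tregs, with Ncr1 at 3 UMIs in each, and the 6 gamma-delta T cell markers to 9.09 and 20.1 CPM. The CD8 genes had 2 UMIs in aged Tregs and 0 in young Tregs, with Cd8b1 at 0 by the rule. The part of this RNA in the differences between aged and young Tregs was not tested.

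In the authors' deposited table of genes that mark their clusters of aged spleen, 1 cluster listed Izumo1r at 6.14-fold and Ctla4 at 6.12-fold over the other cells, with Ikzf2 at 4.26-fold and Tnfrsf4 at 3.39-fold. In the authors' deposited table of young spleen no cluster listed Ctla4, and Izumo1r reached 1.95-fold at most. The authors' deposited tables were read with natural logarithms, since they do not state the base, and the map of cells to these clusters was not used here.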

How the data were processed

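The deposited matrices hold UMI counts per gene and barcode, whole and not normalized, with 31053 mouse genes per the file headers, which name software version 3.1.0. The submitters' processing notes instead name Cell Ranger 1.3.1 and a human build, so the software and annotation stay uncertain, and how reads shared by several genes were treated is not stated. The authors' deposited cluster tables give log ratios, taken as natural log.

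Rows with the same symbol (36) were summed. UMIs were summed over Tregs, or over Foxp3-negative T cells, in each library and scaled to 1000000 (CPM) with exact Poisson intervals; ratios have exact conditional binomial intervals and shares exact Clopper-Pearson ones, at 95% and for counting error only. Library totals were 40628623 UMIs in aged spleen and 39866955 in young spleen. A gene counted as measured from 50 UMIs on, aged and young Tregs summed, and a CPM ratio of at least 2 or at most 1/2 as past the fold. The interval and ratio steps were tested on simulated data. No test was made, since each group is 1 library.

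Genes named by rank were, among measured genes, the 10 each way between aged and young Tregs whose interval bound nearest to 1 lay farthest from 1, and the 10 with the highest lower bound over Foxp3-negative cells. Set aside were genes of antibodies, variable and joining segments of the T cell receptor, haemoglobins, ribosomal and mitochondrial genes, sex genes, unnamed models, and any gene whose level was below 10% of that in another gated cell class. Also named were up to 6 members of each list by UMIs and all measured members of 4 lists; other list members named were chosen after their values were seen. The members and lists were chosen with earlier results of these data known. Scrublet (through scanpy 1.11.5) marked 3.01% of aged and 3.49% of young spleen cells as doublets, 3 and 2 of them Tregs, which were kept except in an alternative. Alternatives were other limits on cells and genes, thinning to 1500 UMIs, other scalings and leaving out large, dividing, doublet or shared barcodes. The brain libraries were used only to count shared barcodes.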

Additional observations from a re-analysis of the deposited data

Results flagged for a closer look

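The rule for Tregs also found 38 barcodes in the young brain library, which enters no comparison here, and 0 barcodes in the aged brain library. All 38 were also barcodes of aged spleen, where they held more UMIs (3090 to 17409, median 6205) than in young brain. By comparison, the 3683 other young brain barcodes with under 500 UMIs in aged spleen had a median of 0 and at most 389 UMIs there. Whether any of the 38 came from a brain cell was not tested, and no Treg of the brain is reported.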

How the results depend on the processing

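No paired analysis was possible because each group has 1 library. The ratio of Treg shares stayed above 1 under every alternative run. Without barcodes of at least 500 UMIs in another library it was 1.27 among T cells and 1.15 among Cd8b1-negative T cells, over 4 aged Tregs, and no value of a gene was computed there. There were 156 genes 2-fold higher in aged Tregs, 127 genes 2-fold lower in aged Tregs and 74 genes 2-fold higher in Tregs than Foxp3-negative T cells in both libraries, and these 3 counts moved with the settings. With genes of at least 20 UMIs they were 421, 370 and 136, with every gene with a UMI in each library 1041, 1214 and 421, and with a fold of 1.5 438, 460 and 170. At 1500 UMIs per cell, where 271 genes were measured, they were 11, 1 and 8. The lower count was 58 without any Cd79a or Ms4a1 UMI and 43 without the 2 Tregs over 20000 UMIs. Without Tregs with an Mki67 or Top2a UMI, 89 were higher and 36 lower, the cell cycle median turned to 0.25 and Hmgb2 to 1.25-fold. These last 2 alternatives were chosen after seeing the data. The third count was 46 at a mitochondrial limit of 5% and 29 with a Cd4 UMI required. The cause of these last shifts was not tested. No other list median of at least 1 on the log2 scale, and no other named gene past 2-fold, changed direction in any alternative run. Depth limits what single genes show: with 98 and 56 cells, a gene of 50 UMIs can have most of them in 1 cell.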

Other observations

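Ighm, the immunoglobulin heavy chain of B cells, was set aside from the named genes as RNA of other cells, yet it stood higher in Tregs than in Foxp3-negative T cells of the same spleen. It had 1093 CPM in aged Tregs, 2.80-fold over aged Foxp3-negative cells, and 744 CPM in young Tregs, 2.44-fold over young Foxp3-negative cells. It was found in 89 of 98 aged and 44 of 56 young Tregs. The cause was not tested.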
